A study of Mus musculus with 6 samples.

Results

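Open chromatin was examined at 7 genes that are widely used to recognise stromal cells of mouse bone marrow: Lepr, Pdgfra, Pdgfrb, Nes, Ly6a, Thy1 and Eng. They are 7 of 21631 protein-coding genes. The genes were chosen by name, and a peak was counted for a gene when its summit lay in the gene or within 100 kb of it and no other protein-coding gene was nearer. In the lists as deposited, these genes held 62, 65 and 57 peaks in the 3 libraries of control mice and 62, 66 and 77 in the 3 libraries of treated mice, or 389 of 525802 peaks in all. Throughout, values of a group are given in the order of replicates 1, 2 and 3.

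The study asked what chemotherapy had left in the chromatin of marrow stroma. All mice of both groups were female and carried Lepr-Cre with the Cre-dependent reporter LSL-tdTomato+/-, and they were 8 to 10 weeks old at treatment. The DOX group received 4 intravenous injections of 5 mg/kg doxorubicin, an anthracycline that poisons topoisomerase II, 1 week apart, and the PBS group received phosphate-buffered saline on the same schedule. Mesenchymal stem and progenitor cells (MSPCs) were sorted as tdTomato-positive marrow cells 8 weeks later and assayed by Omni-ATAC, in which the transposase Tn5 cuts accessible DNA, with 3 libraries in each group. Because tdTomato depends on Lepr-Cre, the cells were gated by past or present activity of Lepr itself, and descendants of cells that once made Cre are included. Neither the number of mice per library nor the construction of the Cre allele is stated in the labels, so the tests reflect variation among libraries, which may be technical.

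Lepr encodes the leptin receptor, a cytokine receptor that signals through JAK2 and STAT3, and in adult marrow it marks the perivascular stromal cells that make CXCL12 and stem cell factor. Pdgfra and Pdgfrb encode the receptor tyrosine kinases for platelet-derived growth factors, and Eng encodes endoglin (CD105), a co-receptor for ligands of the TGF-beta family that is also abundant on endothelium. Ly6a (Sca-1) and Thy1 (CD90) encode small surface proteins held by a lipid anchor, and Nes encodes nestin, an intermediate filament protein of the cytoskeleton and thus the only member that is not a surface protein.

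RefSeq start windows were at hand for 4 of the 7 genes, Lepr, Pdgfra, Nes and Eng, and in these 4 every start site lay under a peak in 6 of 6 libraries. The starts of the other 3 were not analysed here. The sequences are shown because these stretches were open in both groups. They are RefSeq windows of 300 bases on the plus strand of GRCm38.p6, the assembly that mm10 displays, from 250 bases before to 50 after the annotated start, and Lepr has 2 annotated starts. Capitals mark a match to a GC box or a CCAAT box on either strand, and lower case is all other sequence.
Lepr, first start, chr4:101717157-101717456: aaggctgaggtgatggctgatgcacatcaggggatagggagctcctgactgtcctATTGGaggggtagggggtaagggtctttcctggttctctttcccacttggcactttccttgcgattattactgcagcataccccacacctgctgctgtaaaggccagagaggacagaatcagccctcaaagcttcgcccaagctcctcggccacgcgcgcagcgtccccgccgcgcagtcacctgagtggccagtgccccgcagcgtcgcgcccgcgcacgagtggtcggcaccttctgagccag
Lepr, second start, chr4:101717656-101717955: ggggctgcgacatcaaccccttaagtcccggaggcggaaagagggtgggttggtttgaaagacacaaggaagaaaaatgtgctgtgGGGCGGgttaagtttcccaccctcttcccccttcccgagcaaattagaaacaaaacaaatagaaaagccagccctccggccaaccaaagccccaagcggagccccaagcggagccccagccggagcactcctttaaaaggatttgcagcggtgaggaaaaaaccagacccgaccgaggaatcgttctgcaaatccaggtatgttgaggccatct
Nes, chr3:87970843-87971142: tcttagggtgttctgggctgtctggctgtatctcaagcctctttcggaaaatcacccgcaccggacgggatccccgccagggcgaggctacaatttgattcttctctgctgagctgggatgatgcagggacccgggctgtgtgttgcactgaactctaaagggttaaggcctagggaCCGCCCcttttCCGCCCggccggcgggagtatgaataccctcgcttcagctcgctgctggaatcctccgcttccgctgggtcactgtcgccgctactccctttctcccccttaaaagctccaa
Eng, chr2:32646345-32646644: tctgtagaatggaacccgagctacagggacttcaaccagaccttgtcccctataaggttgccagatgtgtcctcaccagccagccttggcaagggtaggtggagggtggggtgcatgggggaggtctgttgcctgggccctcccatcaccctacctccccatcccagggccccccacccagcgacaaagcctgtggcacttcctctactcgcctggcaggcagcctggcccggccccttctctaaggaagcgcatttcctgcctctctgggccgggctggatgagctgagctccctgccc
Pdgfra, chr5:75152001-75152300: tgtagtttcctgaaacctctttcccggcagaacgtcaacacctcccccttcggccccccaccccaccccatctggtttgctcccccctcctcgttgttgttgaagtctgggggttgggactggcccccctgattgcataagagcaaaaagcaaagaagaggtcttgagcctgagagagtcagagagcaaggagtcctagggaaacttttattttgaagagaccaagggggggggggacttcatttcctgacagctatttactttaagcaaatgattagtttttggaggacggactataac

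Both Lepr windows and the Nes window were rich in CpG, with 18, 13 and 18 CpG dinucleotides against a median of 7 over 32851 windows. The Eng window held 6 CpG and the Pdgfra window 5. GC content was 61.3% and 54.3% in the Lepr windows, 58.7% in Nes, 63.3% in Eng and 51% in Pdgfra, against a median of 52.7%. Of 6 motifs searched on both strands with overlapping matches allowed, the CCAAT box (CCAAT) was matched once in the first Lepr window, and the GC box (GGGCGG) once in the second Lepr window and at 2 places in Nes. Windows with a CCAAT box were 37.4% of all windows and those with a GC box 35.7%. The other 4 motifs had no match in these 5 windows: an EBF core (CCCNNGGG, in 13.7% of windows), an AP-1 site (TGANTCA, 7.81%), a STAT site (TTCNNNGAA, 8.30%) and a TATA box (TATAAA, 13.6%). A match is a description of letters and not a measured binding site.

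Summits sat at different places relative to these starts. In Nes, the nearest summit lay at -39 to 17 bases from the start in the 6 libraries, and in Eng at -89 to -5 bases. In Lepr the summit fell between the 2 annotated starts in 6 of 6 libraries, at 296 to 363 bases from the first and at -203 to -136 bases from the second. For Pdgfra the nearest summit was 4, -2279 and -908 bases from the start in PBS against 7, -2237 and -2242 bases in DOX. In PBS replicate 2 and DOX replicates 2 and 3 that summit belonged to a separate region before the gene, not to the peak over the start. The Pdgfra start lay under a far wider region, described below, whose strongest summit was inside the gene.

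The libraries differed in depth, which bears on every count. Depth recovered from the lists, as the mean number of fragments per position, was 0.558 to 1.27 in PBS against 1.67 to 2.22 in DOX, and PBS replicate 3 was the shallowest. The deposited lists held 65462 to 89264 peaks in PBS against 91026 to 100642 in DOX. So that libraries could be compared at equal list length, the strongest 65462 peaks of each were used. Overlapping peaks were merged across libraries, which gave 78613 regions genome-wide, of which 62.5% were present in 6 of 6 libraries. The strength of a region is given as a rank: the place of its strongest peak in the library's own list, in percent of the list, so that a low percentage is a strong peak and 100% the weakest kept. In bulk libraries, fewer cells with an open region and less opening in each cell cannot be told apart.

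The 7 genes had 50 regions, of which 34 (68%) had a peak in 6 of 6 libraries, a share near the 62.5% of regions genome-wide. No region was present in all DOX and no PBS libraries, where the genome-wide share was 0.792%, and none in all PBS and no DOX libraries, where it was 0.303%. Without PBS replicate 3 there was 1 of each, both at Lepr and described there. Genome-wide, that setting gave 955 regions in DOX only and 681 in PBS only, of 78613 regions. Of the 9 regions found in a single library, 5 were found in PBS replicate 3, whose weakest kept peak had a pileup of 5 fragments against 14 to 28 in the others. All 9 were weak, at ranks from 82.6% to 99.6%. By place, 19 of the 50 regions had their strongest summit inside the gene, 5 within 1 kb of a gene end and 26 outside the gene.

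Lepr was among the genes with the most peaks. It had 12, 12 and 15 peaks in PBS against 12, 13 and 13 in DOX, more than 96.1% of all protein-coding genes, whose median was 1.17. By density, at 9.37 peaks for each 100 kb of DNA assigned to it, Lepr exceeded 81.7% of genes. Its groups overlapped and its fitted log2 fold change, DOX over PBS, was -0.029 ± 0.11 (SE, limma adjusted p = 1). On the lists of full length the counts were 17, 21 and 15 in PBS against 21, 23 and 27 in DOX (log2 fold change 0.42, limma adjusted p = 0.533). The sign also turned at equal list length, to 0.0026 when merged regions were counted, 0.074 without PBS replicate 3 and 0.0076 without DOX replicate 1, so no direction is read from it. Hoxa3, Rfx8 and Vmp1 were the genes with the most similar peak counts over the 6 libraries, at Euclidean distances of 0.188, 0.198 and 0.211 on the log2 scale. Hoxa3 and Rfx8 encode transcription factors and Vmp1 a membrane protein of autophagy.

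The strong open chromatin of Lepr was gathered at the front of the gene. Lepr spans chr4:101717137-101815352 (98.2 kb), and its 10 regions present in 6 of 6 libraries lay within a stretch of 35.2 kb, from 28.0 kb before the gene to 7.18 kb into it. Of these, 7 lay before the gene and 3 in it. In the equal-length lists the remaining 91.0 kb of the gene held 4 regions, each found in 1 or 2 libraries. The deposited lists held weak peaks there too, among them chr4:101741562-101742289 in 6 of 6 libraries, with the authors' fold enrichment at 4.41 to 8.998, and chr4:101779780-101780204 in 5, at 4.65 to 10.1. Both were named after their values were seen. The neighbouring gene Leprot, which encodes a small protein that modulates surface levels of the leptin receptor, ended 57.8 kb before Lepr. Leprot had 6 peaks in each of the 6 libraries. Summits past the midpoint of the gap between Leprot and Lepr were counted for Leprot. The low edge of the 35.2 kb stretch was therefore limited by the nearest-gene rule, and it does not show where open chromatin ends.

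**Figure D1:**
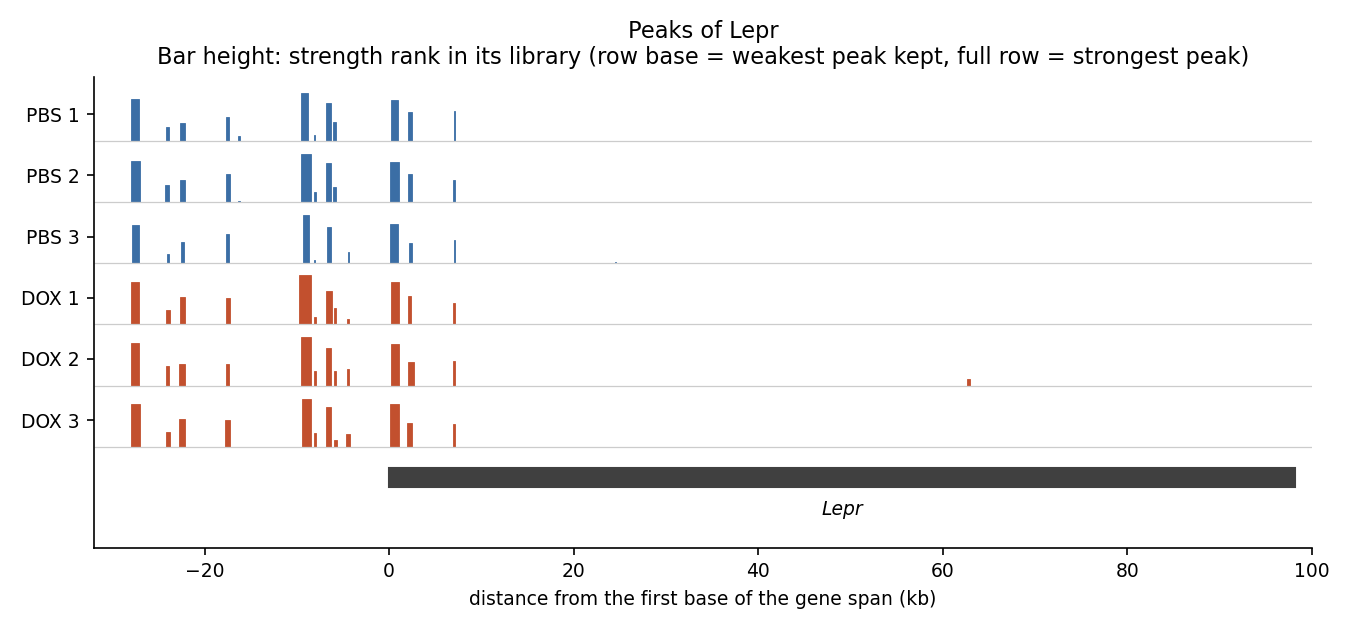
Peaks of Lepr in the equal-length lists, with 1 row for each library and distance from the first base of the gene span in kb on the horizontal axis; bar width is peak width, bar height is the strength rank within the library, and the dark bar is the gene. The 10 regions present in 6 of 6 libraries lie from 28.0 kb before the gene to 7.18 kb into it, and the remaining 91.0 kb hold 4 regions of 1 or 2 libraries. Peaks with summits nearer to Leprot are not drawn, so the low edge is limited by the nearest-gene rule.

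The strongest Lepr region was not at the gene's start but 9.04 kb before it, at chr4:101707387-101708679. It ranked at 10.6, 9.56 and 10.3% in PBS and at 7.92, 9.57 and 9.95% in DOX. Its log2 rank difference, positive where DOX was stronger, was 0.16 ± 0.16 (SE), with a limma adjusted p of 0.695, and the groups overlapped. The authors' fold enrichment at its summit was 87.2, 94.9 and 57.8 in PBS against 109, 112 and 122 in DOX. That fold contains an added 1 in both terms and so rises with depth, which was higher in every DOX library, and it was not compared between groups.

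The region over both Lepr start sites, chr4:101717227-101718229, ranked at 24.3, 24.1 and 26.7% in PBS and at 20.2, 21.3 and 19.1% in DOX. The 3 DOX libraries were thus stronger than the 3 PBS libraries, by 0.31 ± 0.12 on the log2 scale. The unadjusted p of 0.0189 became 0.267 after adjustment over 49098 regions (limma), so the difference did not pass the test. A region 27.7 kb before the gene, chr4:101689155-101690135, was named after its values were seen. It ranked at 22.2, 22.8 and 28.6% in PBS against 20.4, 20.6 and 19.0% in DOX, a difference of 0.29 ± 0.13 (limma adjusted p = 0.337). Another, 22.4 kb before the gene, chr4:101694402-101695013, ranked at 67.5, 59.7 and 59.7% in PBS and at 48.6, 59.5 and 47.3% in DOX, a difference of 0.27 ± 0.14 (limma adjusted p = 0.420). In these 3 Lepr regions the groups did not overlap and DOX was stronger, a pattern seen in 10.9% of regions genome-wide. In the other 7 shared Lepr regions the groups overlapped, with differences from -0.12 to 0.19.

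Some weak regions of Lepr were in some equal-length lists and not in others. The region at chr4:101712512-101712867, 4.40 kb before the gene, was present in all DOX libraries, at ranks of 90.5, 69.3 and 76.1%, and in PBS replicate 3 at 78.5%, but not in PBS replicates 1 and 2. In the deposited lists it had a peak in 6 of 6 libraries, with the authors' fold enrichment at 6.61 and 6.20 in PBS replicates 1 and 2. The region at chr4:101700752-101701023, 16.3 kb before the gene, was in the equal-length lists of PBS replicates 1 and 2 only, at 91.5 and 97.8%. In the deposited lists it was present in 5 libraries, PBS replicate 3 being the exception, with folds of 6.62, 7.86 and 8.07 in DOX. These are the 2 regions that separated the groups in the equal-length lists once PBS replicate 3 was left out, so neither was particular to a group in the deposited lists, and both were chosen after their values were seen.

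The 2 PDGF receptor genes showed the broadest open stretches. Pdgfra spans chr5:75151322-75198206 (46.9 kb), and a region of 6845 bp, chr5:75150648-75157492, covered its annotated start and the first part of the gene. Peaks covered 6255, 6748 and 5663 bp of it in PBS against 6526, 6627 and 6600 bp in DOX. The peak caller had cut this region into 3, 1 and 4 peaks in PBS against 2, 1 and 1 in DOX. It was the strongest Pdgfra region, at ranks of 10.7, 11.1 and 8.72% in PBS against 10.8, 11.8 and 11.7% in DOX. The groups overlapped, with a log2 rank difference of -0.18 ± 0.15 (SE, limma adjusted p = 0.648). The strongest summit of the region lay 5.03 kb into the gene rather than at its start.

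Pdgfra had 11, 8 and 11 peaks in PBS against 8, 8 and 8 in DOX. The fitted log2 fold change was -0.29 ± 0.14, with a limma adjusted p of 0.656. Counted as merged regions, the groups held 9, 8 and 8 in PBS against 7, 8 and 8 in DOX, so the gap was smaller when each region counted once. Without PBS replicate 2 the PBS counts were 11 and 11 against 8 throughout DOX, and the fitted value was -0.44 with a limma adjusted p of 0.000127, a call that rests on counts with no spread in either group. Twist2, a basic helix-loop-helix transcription factor, Gas6, a ligand of TAM receptor kinases, and Prickle1, a planar cell polarity gene, had the most similar counts, at distances of 0.207, 0.257 and 0.305 over 6 libraries.

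A second strong Pdgfra region, named after its values were seen, stood far beyond the gene. It lay at chr5:75277973-75278573, 80.0 kb past the gene's end, in a gap of 377 kb before Kit, the receptor for stem cell factor. It ranked at 14.2, 14.9 and 25.0% in PBS and at 12.2, 13.1 and 17.0% in DOX, a difference of 0.32 ± 0.19 (limma adjusted p = 0.462), and the groups overlapped. The nearest-gene rule, not a measured contact, ties this region to Pdgfra.

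Pdgfrb was densely covered. It spans chr18:61045127-61085067 (39.9 kb) and had 26.1 peaks for each 100 kb of DNA assigned to it, more than 98.0% of genes. The median was 2.94. Nes had 13.5, Eng 9.52, Lepr 9.37, Pdgfra 4.89, Thy1 1.75 and Ly6a 1.56. Pdgfrb had 12, 11 and 22 peaks in PBS against 14, 10 and 11 in DOX (log2 fold change -0.30 ± 0.32, limma adjusted p = 0.860). The 22 peaks of PBS replicate 3 stood in 12 merged regions, and the other libraries had 9 or 10 regions. Without PBS replicate 3 the log2 fold change was 0.0076. Closest in peak counts were Ptch1, the hedgehog receptor, Nfkbia, an inhibitor of NF-kappaB, and Coro7, a coronin, at distances of 0.434, 0.534 and 0.592 over 6 libraries.

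The strongest region of Pdgfrb, and of all 7 genes by mean rank, lay over the low-coordinate end of the gene at chr18:61043819-61045735. It ranked at 5.87, 3.97 and 5.47% in PBS and at 5.81, 5.54 and 3.56% in DOX. The difference was 0.051 ± 0.22 (SE, limma adjusted p = 0.947), and the groups overlapped. This region also covered the near end of the neighbouring gene Gm52351, 0.414 kb from Pdgfrb. Its strongest peak was nearest to Pdgfrb in 6 of 6 libraries. A weaker peak in every PBS library and in DOX replicate 1 was nearer to Gm52351. A region of 4087 bp inside Pdgfrb, chr18:61053655-61057741, ranked at 7.06, 6.28 and 6.69% in PBS and at 5.50, 5.72 and 5.56% in DOX. Here the 3 DOX libraries were stronger than the 3 PBS libraries, by 0.25 ± 0.17, but the limma adjusted p was 0.540. The largest difference among the 34 shared regions was at chr18:61070780-61072560, also inside Pdgfrb, at 40.5, 58.1 and 82.6% in PBS against 38.1, 36.8 and 45.1% in DOX. It was 0.54 ± 0.19 (unadjusted p = 0.0108, limma adjusted p = 0.219). The groups overlapped because PBS replicate 1 lay among the DOX libraries, and without that replicate the difference was 0.80 with a limma adjusted p of 0.0399. Both regions inside the gene were named after their values were seen.

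**Figure D2:**
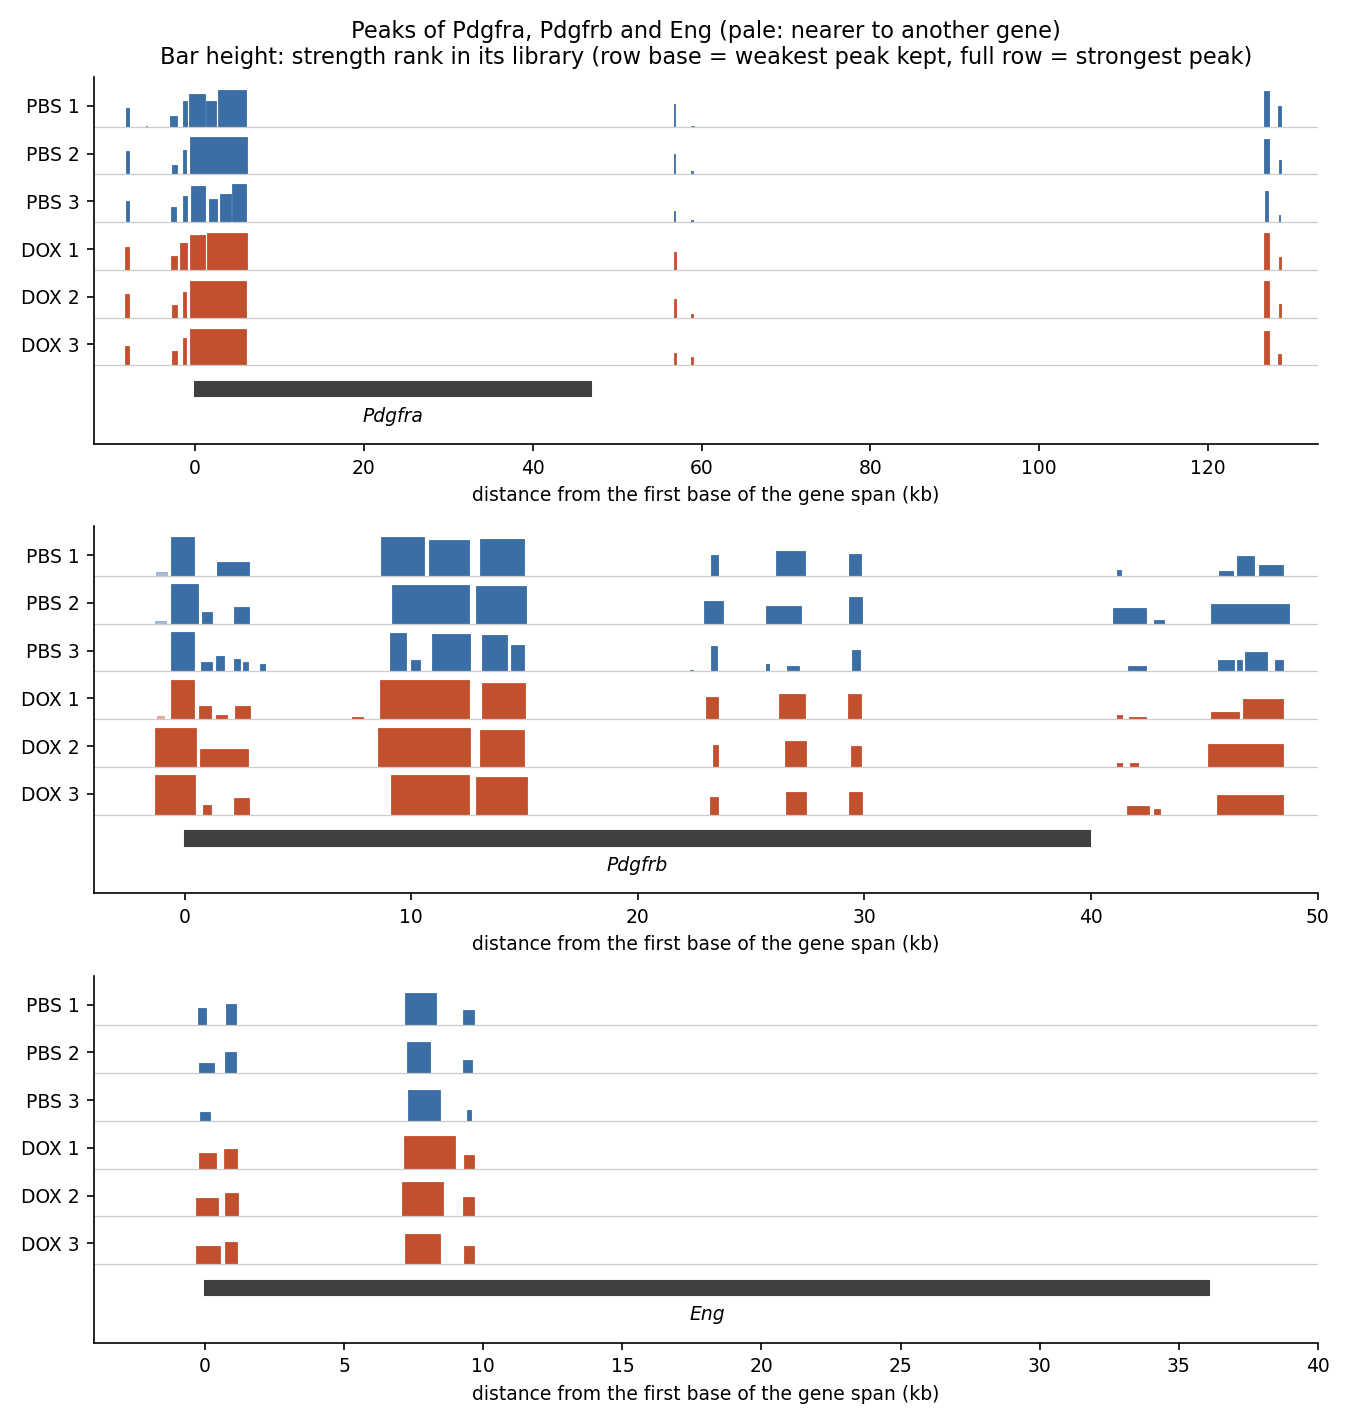
Peaks of Pdgfra, Pdgfrb and Eng in the equal-length lists, with 1 row for each library and distance from the first base of each gene span in kb; bar width is peak width, bar height the strength rank within the library, pale bars are peaks nearer to another gene, and dark bars are the genes. The region of 6845 bp at the front of Pdgfra is cut into 1 to 4 peaks, and Pdgfrb has 22 peaks in PBS replicate 3 against 10 to 14 in the other libraries.

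Eng had 5 regions, of which 3 were present in 6 of 6 libraries. It spans chr2:32646595-32682669 (36.1 kb) and had 4, 4 and 3 peaks in PBS against 4, 5 and 4 in DOX (log2 fold change 0.22 ± 0.15, limma adjusted p = 0.794). The region over its start, chr2:32646248-32647136, was of modest strength, at ranks of 58.9, 74.7 and 77.9% in PBS against 63.0, 57.0 and 57.3% in DOX. The difference was 0.25 ± 0.15 (limma adjusted p = 0.487), with overlapping groups. Its strongest region lay inside the gene, 7.46 kb from the start, at chr2:32653681-32655585, with ranks of 21.2, 24.3 and 25.4% in PBS against 20.9, 17.4 and 26.6% in DOX. That difference was 0.15 ± 0.15 (limma adjusted p = 0.709). The region next to the start, chr2:32647258-32647772, was found in 5 libraries and not in PBS replicate 3.

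Eng peaks covered more base pairs in all 3 DOX libraries than in any PBS library. The lengths were 2163, 2074 and 1663 bp in PBS, or 1967 ± 267 bp (SD, n = 3), and 3297, 3507 and 2970 bp in DOX, or 3258 ± 271 bp (SD, n = 3). The groups did not overlap, and the two-sided exact permutation test gave p = 0.10, the smallest that 3 libraries against 3 can give. Thy1, at 1263 ± 80.3 bp in PBS against 1679 ± 7.55 bp in DOX, and Pdgfra, at 8909 ± 915 and 9722 ± 86.1 bp (SD, n = 3), also gave p = 0.10 in the exact permutation test. The whole equal-length lists did the same, with 36.3 ± 5.66 Mb covered in PBS and in DOX 44.9 ± 1.56 Mb (SD, n = 3, exact permutation p = 0.10), and depth moved the same way. Set against the length covered genome-wide, Eng took a mean of 0.00544% in PBS against 0.00727% in DOX, Thy1 0.00353 and 0.00374%, and Pdgfra 0.0247 and 0.0217%. For Lepr, Pdgfrb, Nes and Ly6a the exact permutation p ranged from 0.20 to 0.40. Lepr peaks covered 5308, 6507 and 4913 bp in PBS against 6260, 6723 and 7389 bp in DOX (exact permutation p = 0.20), with the groups overlapping. The Thy1 difference rests on its 2 regions over 50 kb away, since no peak counted for Thy1 within that distance, and the Eng difference was 542 bp in half-length lists (exact permutation p = 0.10). The part of depth in these widths was not tested.

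Nes was open at its start and at a single place past its end. It spans chr3:87971093-87980451 (9.36 kb) and had 3, 3 and 3 peaks in PBS against 3, 2 and 3 in DOX (log2 fold change -0.16 ± 0.16, limma adjusted p = 0.794). The start region, chr3:87970212-87971810, was the stronger of its 2 regions and ranked at 44.2, 42.4 and 49.8% in PBS against 39.6, 47.3 and 37.9% in DOX. Its difference was 0.13 ± 0.14 (limma adjusted p = 0.721). The other region, chr3:87982795-87983310, lay 2.53 kb beyond the gene and ranked at 60.2, 77.2 and 73.7% in PBS against 80.4, 77.3 and 72.0% in DOX, a difference of -0.13 ± 0.14 (limma adjusted p = 0.736). In both regions the groups overlapped. Neither region had its strongest summit over all libraries inside Nes in the equal-length lists. In DOX replicate 2 the summit of the start region lay 17 bases into the gene.

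Ly6a and Thy1 differed from the other 5 genes in that no equal-length list held a peak at either end of them. Ly6a spans chr15:74994877-74998031, and its only region, chr15:74988314-74989766, lay between Ly6i and Ly6a. That region had a peak in 6 of 6 libraries, at ranks of 67.0, 52.4 and 65.1% in PBS against 59.0, 52.0 and 50.8% in DOX. Its difference was 0.18 ± 0.15 (limma adjusted p = 0.621), and the groups overlapped. The counts of peaks assigned to Ly6a, 0, 0 and 1 in PBS against 0, 1 and 1 in DOX, reflect on which side of the midpoint the summit fell. Its strongest summit was 6159, 5991 and 6024 bp from Ly6a in PBS against 6172, 5614 and 5619 bp in DOX, in a gap of 11.4 kb between both genes. PBS replicate 3 had 2 peaks there, of which the weaker was nearer to Ly6a. With a mean under 2 peaks, Ly6a was not tested for peaks per gene.

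Thy1 spans chr9:44043384-44048579 and had 2 peaks in each of the 6 equal-length lists, both on the low-coordinate side of the gene. The stronger, chr9:43984176-43985062, lay 58.5 kb away and ranked at 33.5, 35.8 and 35.1% in PBS and at 36.0, 39.9 and 38.9% in DOX. Here the PBS libraries were stronger without overlap, a pattern of 7.9% of regions genome-wide, by a difference of -0.14 ± 0.12 that did not pass the test (limma adjusted p = 0.671). The second, chr9:43988747-43989661, lay 54.3 kb away and ranked at 56.0, 66.0 and 57.7% in PBS against 54.6, 55.1 and 58.1% in DOX. Its difference was 0.095 ± 0.14 (limma adjusted p = 0.813). In the lists of full length, a weak peak over the low-coordinate end of Thy1, chr9:44043276-44043440, appeared in DOX replicate 2 alone, with the authors' fold enrichment at 4.12. A missing peak means that the stretch did not reach that library's threshold, which is not the same as closed chromatin.

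**Figure D3:**
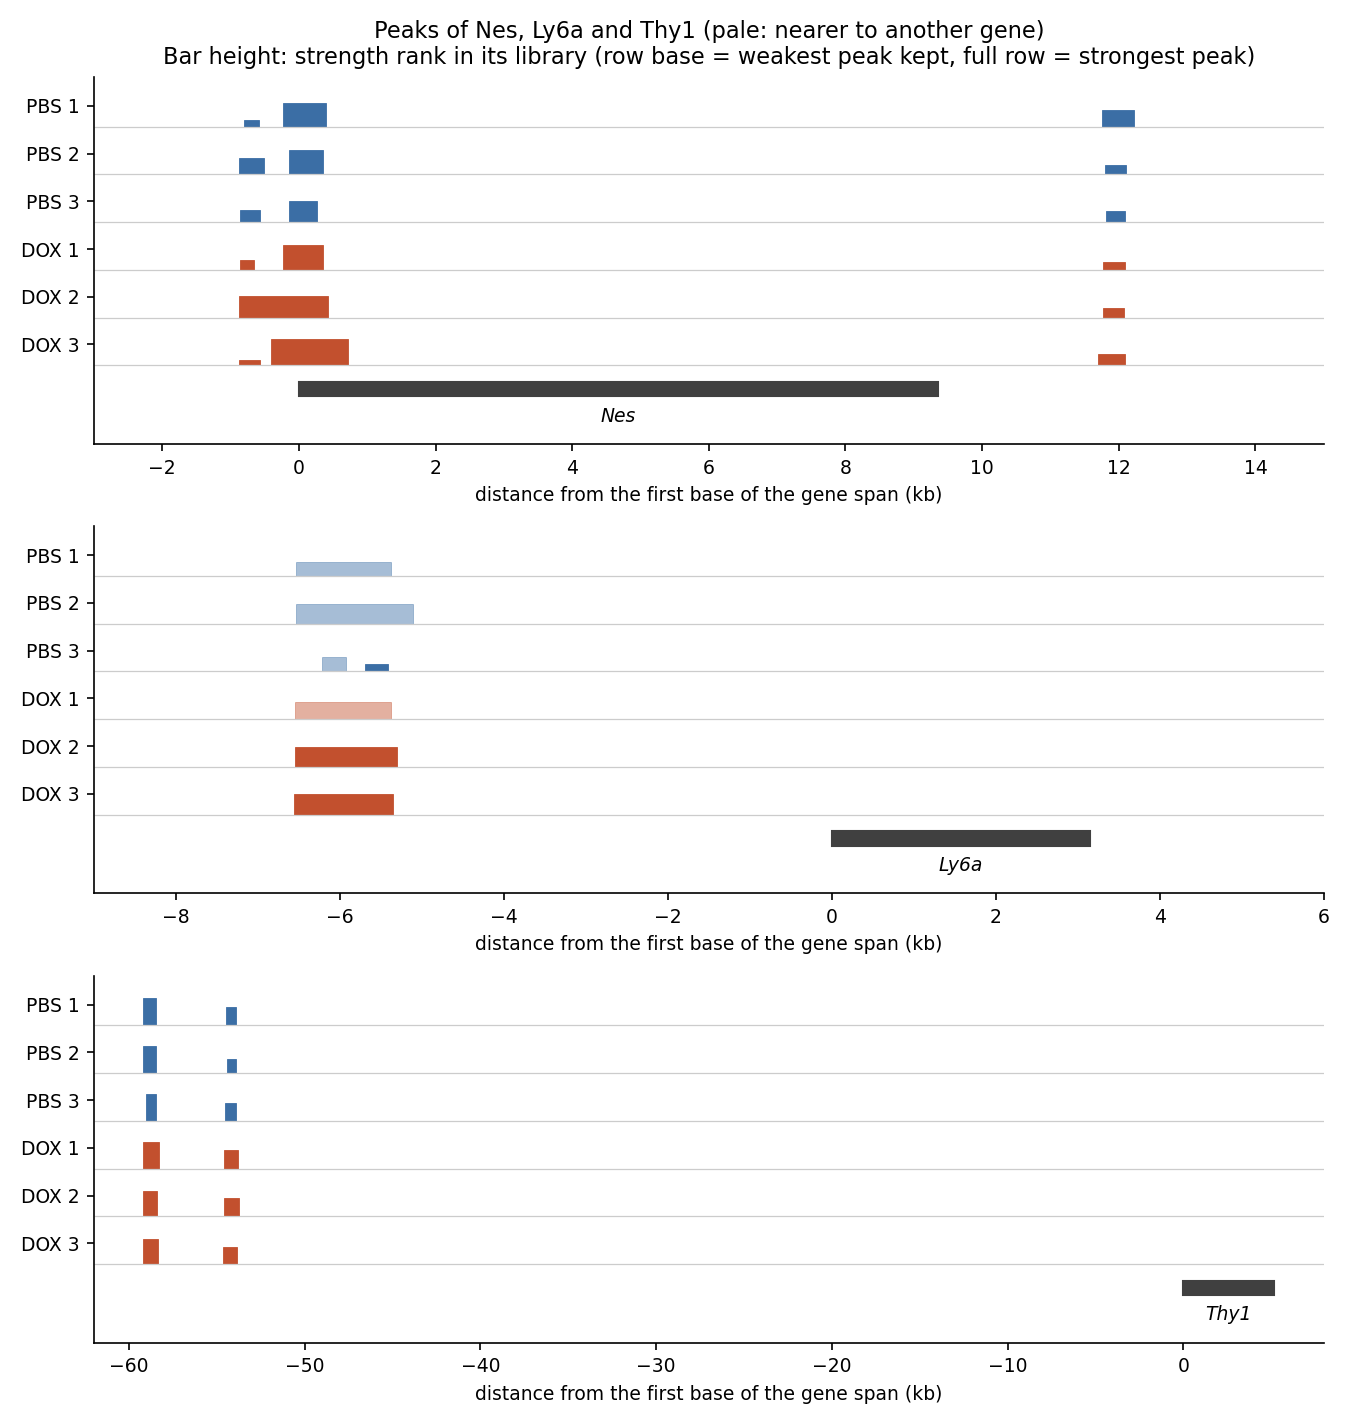
Peaks of Nes, Ly6a and Thy1 in the equal-length lists, with 1 row for each library and distance from the first base of each gene span in kb; bar width is peak width, bar height the strength rank within the library, pale bars are peaks nearer to another gene, and dark bars are the genes. Nes has a peak over its start in 6 of 6 libraries, while the peaks of Ly6a and Thy1 lie on the low-coordinate side of these genes.

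Across the 7 genes, neither test called a difference between DOX and PBS. For peaks per gene, 0 of the 6 genes tested passed an adjusted p under 0.05 in limma, and 0 had an unadjusted p under 0.05. Over all 8928 genes tested, 0.56% were called higher in DOX and 0.538% lower (1.1% in either direction), and 2.91% and 2.54% had an unadjusted p under 0.05. The median log2 fold change was -0.096 over the 6 genes and 0 over all genes tested. For strength ranks, 0 of the 34 shared regions were called by limma, against 0.0326% of all shared regions (0.0285% stronger and 0.00407% weaker in DOX), and 3 had an unadjusted p under 0.05, against 13.5%. Ranks of the groups did not overlap in 5 of the 34, of which 4 were stronger in DOX and 1 in PBS, against 10.9% and 7.9% of shared regions genome-wide. Of the 34 differences 22 were above 0, against 26256 of 49098 over all shared regions, and their median was 0.078 against 0.018. With 3 libraries in each group, a missed threshold does not show that the groups were alike.

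**Figure D4:**
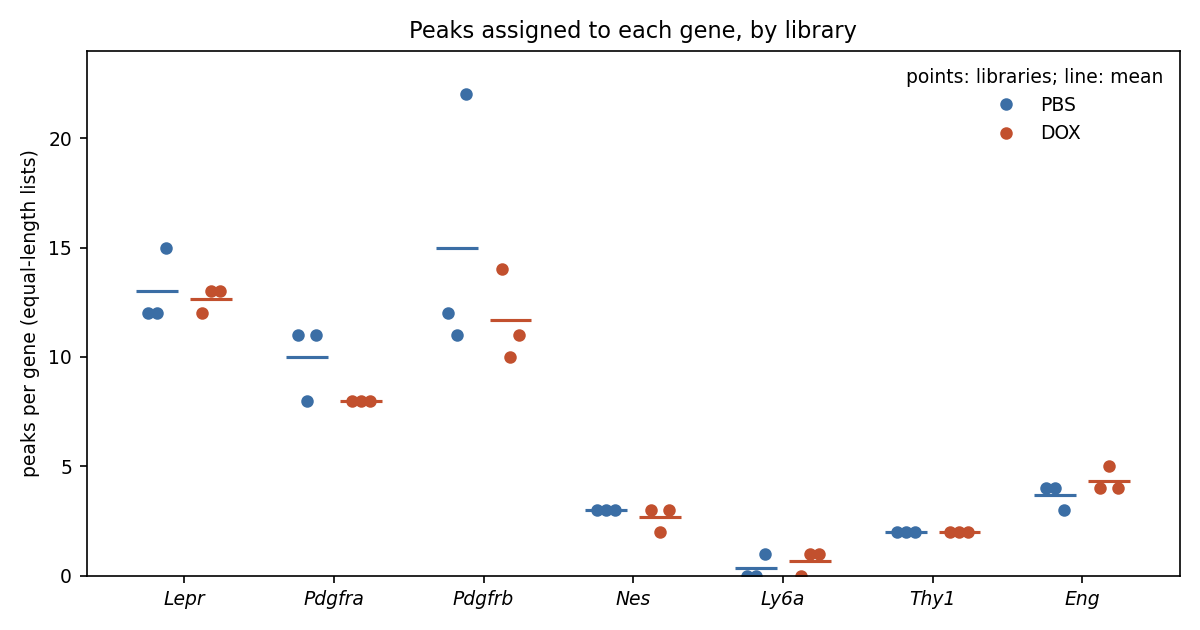
Number of peaks assigned to each of the 7 genes (vertical axis) in the equal-length lists; points are the 6 libraries, PBS in blue and DOX in red, and lines are group means of 3 libraries. The groups overlap in every gene, and the highest point is PBS replicate 3 at Pdgfrb with 22 peaks.

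**Figure D5:**
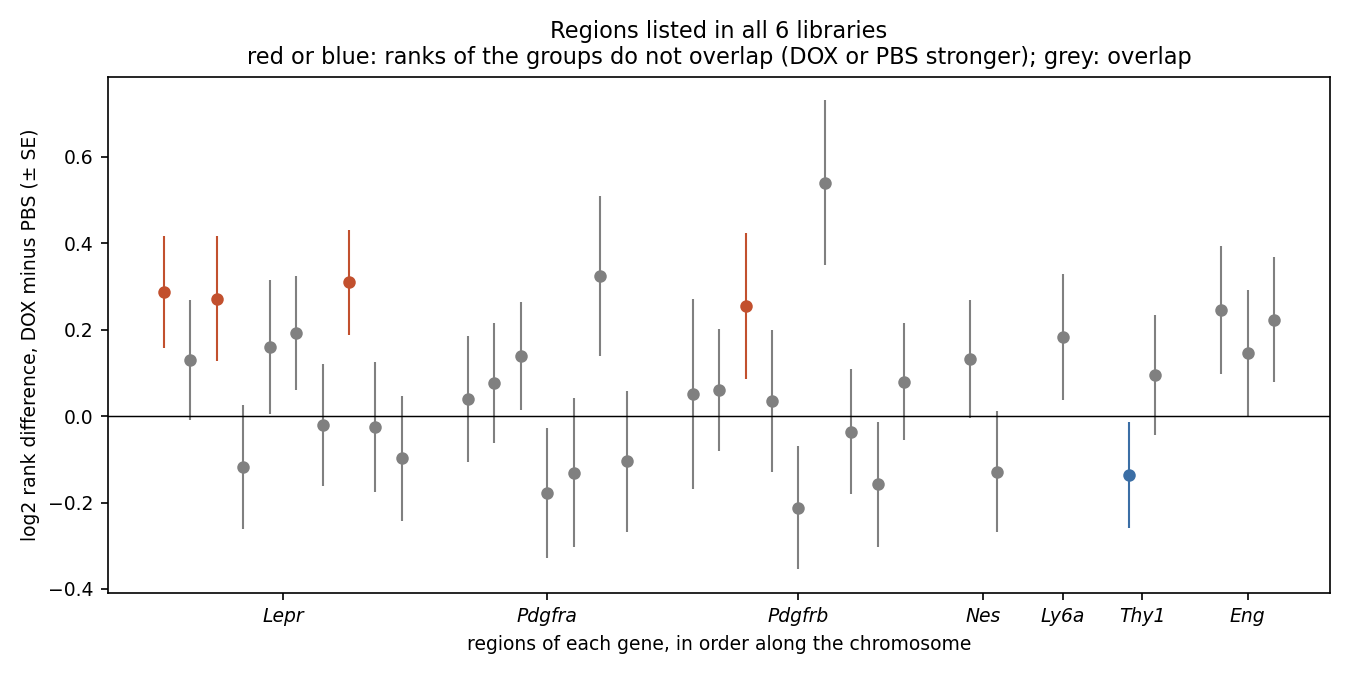
Log2 rank difference, DOX minus PBS, for the 34 regions present in 6 of 6 libraries, in order along the chromosome within each gene; points are limma estimates with SE bars, coloured where the ranks of the groups do not overlap. The points lie between -0.21 and 0.54, the highest is a Pdgfrb region, and none passed the adjusted test.

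Genes that act with these receptors were read from lists of symbols. Of 14 genes of leptin receptor signalling, 13 were tested and 0 were called by limma in either direction, with a median log2 fold change of 0. Those with the most peaks were Ptpn1, a phosphatase that restrains leptin signalling, with 26, 26 and 26 peaks in PBS against 27, 25 and 28 in DOX, and Irs2, an adaptor of insulin and leptin signalling, with 17, 19 and 24 in PBS against 22, 22 and 21 in DOX. Jak2, the kinase bound to the leptin receptor, had 7, 7 and 7 peaks in PBS against 6, 6 and 5 in DOX. It was the only gene of this list with an unadjusted p under 0.05 (log2 fold change -0.29 ± 0.078, limma adjusted p = 0.594). Genes named for an unadjusted p in this list and those below stand beside the share over all 8928 genes tested. That share was 2.91% higher and 2.54% lower in DOX.

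For PDGF ligands, related receptors and signal proteins, 15 of 18 genes were tested, 0 were called by limma and the median was 0. Pik3r1, the regulatory subunit of PI3-kinase, had the most peaks of this list, with 40, 39 and 35 in PBS against 45, 42 and 47 in DOX. It was the only gene of the list under an unadjusted p of 0.05 (log2 fold change 0.23 ± 0.072, unadjusted p = 0.0305, limma adjusted p = 0.656). Cblb, a ubiquitin ligase that ends receptor signalling, followed with 16, 15 and 18 in PBS against 17, 17 and 13 in DOX.

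Of 16 partners of endoglin among the TGF-beta and BMP receptors and their signal proteins, 13 were tested and 0 were called by limma, with a median of -0.069. Tgfbr3, the co-receptor betaglycan, had 43, 43 and 44 peaks in PBS against 40, 45 and 46 in DOX. Tgfbr2, the receptor that binds TGF-beta, had 12, 12 and 12 in PBS against 13, 14 and 13 in DOX (log2 fold change 0.15 ± 0.033, unadjusted p = 0.0106, limma adjusted p = 0.437), the only gene of this list under an unadjusted p of 0.05.

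The Ly6 family on chromosome 15 was nearly bare. Of its 18 genes, 16 had no summit within 1 kb of a gene end in any of the 6 libraries, Ly6a among them. The exceptions, open in 6 of 6 libraries, were Ly6e, a broadly expressed member, with 10, 9 and 8 peaks in PBS against 9, 10 and 10 in DOX, and Lynx1, a modulator of acetylcholine receptors, with 2, 1 and 1 and with 2, 2 and 2. Ly6e was the only one tested (log2 fold change 0.10 ± 0.097, limma adjusted p = 0.794). Among 8 intermediate filament genes, Nes included, 7 were tested and 0 were called by limma, with a median of -0.16. Lmna, the nuclear lamin A/C gene, had 16, 14 and 22 peaks in PBS against 13, 17 and 14 in DOX, and Synm, the synemin gene, 10, 8 and 8 and 8, 8 and 9. Vim, encoding vimentin, had 5, 5 and 5 in PBS against 4, 4 and 3 in DOX (unadjusted p = 0.0226, limma adjusted p = 0.630), the only gene of that list under 0.05. Among 19 other stromal surface genes, 16 were tested and 0 were called by limma, with a median of 0. Ncam1 and Cd9 had the most peaks, 17 to 21 and 14 to 17 over the 6 libraries. Mcam (CD146) was the only one with an unadjusted p under 0.05, at 4, 4 and 5 peaks in PBS against 3, 3 and 3 in DOX (log2 fold change -0.46 ± 0.094, limma adjusted p = 0.382). Jak2, Vim and Mcam were named after their values were seen.

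Gene ends were also read to check the labelled cell type. Counting a gene as open when a summit lay within 1 kb of either end, 4 to 5 of the 7 genes were open in each library, against 56.8 to 57.2% of all protein-coding genes. Lepr, Pdgfrb, Nes and Eng were open in 6 of 6 libraries. By this rule Pdgfra was open in PBS replicates 1 and 3 and DOX replicate 1 only, although a peak covered its start in 6 of 6, since its strongest summits lay farther in. Since Eng is shared with endothelium, the endothelial list matters most: 3 to 4 of 12 markers were open, with Kdr, Flt4 and Erg open in 6 of 6 libraries and Pecam1, Cdh5, Tek and Emcn in none. Peaks summed over that list numbered 48 to 51 in PBS against 50 to 52 in DOX. Of 12 myeloid and pan-blood markers 2 to 3 were open, with Spi1 and S100a9 open in 6 of 6 libraries, S100a8 in 5, and Ptprc, Itgam, Lyz2 and Mpo in none, and summed peaks were 16 to 18 in PBS against 16 to 17 in DOX. T cell markers were open for 3 to 4 of 12 genes, Cd3d, Cd4 and Tcf7 in 6 of 6 libraries and Cd3e in none (40 to 45 and 37 to 41 summed peaks), B cell markers for 2 to 3 of 10, Blnk among those in 6 of 6 and Cd79a and Pax5 in none (16 to 18 and 17 to 18) and erythroid and megakaryocyte markers for 4 of 12 (15 to 16 and 14 to 17). Smooth muscle and pericyte markers, which overlap with marrow stroma, were open for 7 to 9 of 10 genes (47 to 55 and 51 to 52), and Schwann cell markers for 6 of 10 (32 to 33 and 30 to 31). The part of other cell types in the results was not tested.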

How the data were processed

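Omni-ATAC-seq was done on sorted tdTomato-positive marrow cells, in 3 PBS and 3 DOX libraries, grouped by the sample titles. The authors deposited a peak list for each library on mm10. Per the submitters' processing notes, the tools included Bowtie2 2.4.5, MACS2 2.2.7.1 and Picard 2.10.9, with Trim Galore 0.6.6, DiffBind 3.16.0 and DESeq2 also named, and no role or order. The caller's settings and any shift of reads for the Tn5 cut are not stated there. Each deposited peak has a score, a fold enrichment (the ratio of pileup to background), a −log10 p, a −log10 q and, as another kind of value, the summit's position. These values were the authors', were used to rank or describe peaks within a library and to recover depth under a Poisson model with a constant background, and were not compared between libraries. The deposited lists hold no read counts for peaks that were not called, so no count model was used.

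The members and gene lists were chosen with earlier results of these data known. Peaks on chromosomes 1 to 19 and X were put in order of −log10 p, and the first 65462 of each library were used. Summits were assigned to the nearest protein-coding gene span of a RefSeq table (GRCm38.p6) within 100 kb, a summit in several genes counting for each, which assigned 90.4% to 91.5% of peaks. The table gives no strand, exons or introns, so positions within a gene were not annotated further. Promoter windows were found for Lepr, Pdgfra, Nes and Eng.

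Peaks per gene, as log2(peaks + 0.5), were tested with limma 3.58.1 (trend, robust, two-sided, Benjamini-Hochberg) in the 8928 genes that averaged 2 or more peaks. Ranks of the 49098 regions with at least 1 bp of peak in each library, as −log2(rank / list length), were tested likewise. Fold changes on the log2(peaks + 0.5) scale understate changes of genes with few peaks. Covered length was compared with a two-sided exact permutation test, unadjusted over the 7 genes. The tests were checked on simulated data, in which the test of peaks per gene missed most changes of the size simulated. Those counts were drawn with Poisson spread, which was not matched to the spread between these libraries. How often the test misses a change in these data is therefore not known, and an absent call does not show that a gene was unchanged. Depth sets which weak peaks are listed, so presence of a weak region is less reliable in PBS replicate 3.

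The text names, for each member, its strongest region by mean rank, the region over its start where known, and regions past the rank test or present in a single group. Of each list it names genes past the test, or else up to 2 with the most peaks. For members with a mean of at least 5 peaks it names the 3 genes with the smallest Euclidean distance of log2(peaks + 0.5) over the 6 libraries. Other regions and genes were named after their values were seen. Alternatives were the deposited and half-length lists (32731 peaks), a distance of 50 kb, the shortest gene for ties, merged regions in place of peaks, no filter, a pseudocount of 1, a single prior spread, normal scores, ranking by fold, merging by summit windows of 100 bp, a replicate block and leaving out each library.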

Additional observations from a re-analysis of the deposited data

How the results depend on the processing

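The 6 genes tested and 13 regions of the 7 genes were recomputed, and other named regions and list genes were not. Of 86 values for peaks per gene 6 changed sign and 1 gained a call, and of 151 rank differences 3 changed sign and 1 gained a call. Besides these, Thy1 went from 0 to 0.32 with the deposited lists, and Nes from -0.16 to 0 with merged regions or without DOX replicate 2. For Lepr, peaks per gene gave 0.42 with the deposited lists and 0.0026 with merged regions, and -0.081 to 0.074 with a library left out, above 0 without PBS replicate 3 (0.074) and without DOX replicate 1 (0.0076). For Pdgfrb, -0.30 as reported, they gave 0.083 with the deposited lists and -0.48 to 0.0076 with a library left out, above 0 without PBS replicate 3 (0.0076). The strongest Pdgfrb region gave rank differences of -0.17 to 0.22 with a library left out, below 0 without PBS replicate 1 (-0.061), PBS replicate 3 (-0.0095) and DOX replicate 3 (-0.17). Calls were gained for Pdgfra peaks (-0.44, limma adjusted p = 0.000127) without PBS replicate 2 and for a Pdgfrb region (0.80, limma adjusted p = 0.0399) without PBS replicate 1. The 34 regions of the 7 genes present in each library became 14 with half-length lists, a setting that keeps fewer peaks, and 32 to 37 in the other alternatives.

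Genome-wide counts moved more, and the cause was not tested. Genes called higher in DOX, 50 in the analysis reported, were 77 with the deposited lists and 114 with no filter. Genes called lower, 48 as reported, were 13 with the deposited lists, 26 with merged regions and 90 with no filter. Regions called stronger in DOX, 14 as reported, were 40 with half-length lists, 0 with normal scores, 2 with summit windows and 2 with a single prior spread. Regions called weaker, 2 as reported, were 7, 0, 0 and 1 in the same order. Regions in all DOX and no PBS libraries, 623 as reported, were 2151 in the deposited and 293 in half-length lists. Regions in all PBS and no DOX libraries, 238 as reported, were 43 in the deposited lists and 584 with summit windows. Ranking by fold gave the same results by construction, since the background was constant within a library.

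Leaving out a library in turn gave 102 to 148 genes called higher, 69 to 138 called lower, 0 to 179 regions called stronger and 0 to 62 weaker. It gave 955 to 1452 regions in DOX only and 380 to 681 in PBS only, with 0 to 1 of each at the 7 genes. With a library left out, the difference in covered length, DOX minus PBS, was 883 to 1680 bp for Lepr, 286 to 1093 for Pdgfra, 648 to 2777 for Pdgfrb, 205 to 555 for Nes, 515 to 1140 for Ly6a, 378 to 458 for Thy1 and 1140 to 1435 for Eng. It moved more with other settings: for Lepr, 1215 bp as reported, it was 2991 with the deposited and 509 with half-length lists. For Pdgfrb (1518) it was 3117 and 2728, for Thy1 (416) 165 with half-length lists and 0 within 50 kb, for Ly6a (729) 0 and for Eng (1291) 542 with half-length lists.

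The titles number the replicates of both groups alike. Deviations of libraries with the same number correlated at -0.019, -0.035 and -0.0044 for peaks per gene and at 0.080, -0.094 and -0.0033 for ranks. Between libraries of different numbers the correlations ran from -0.023 to 0.043 for peaks per gene and from -0.149 to 0.170 for ranks. With 3 libraries in each group, these values cannot decide whether the numbers pair the libraries. A fit with the replicate block called 21 genes higher and 16 lower, and 203 regions stronger and 55 weaker, and none of the 6 genes and 13 regions recomputed was among its calls.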
